A study of Mus musculus with 12 samples.

Results

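The genes examined are the 9 members of the catecholamine pathway named Th, Ddc, Dbh, Pnmt, Slc6a2, Slc18a2, Slc18a1, Cyb561 and Maoa, taken by symbol from the 32286 features of the matrices, where each of the 9 had 1 row. Their raw unique molecular identifiers (UMIs, 1 per captured RNA molecule) were followed across the cell classes of the superior mesenteric ganglion (SMG), a sympathetic ganglion of the abdomen. Single-cell libraries from 3' ends came from 12 mice of the 129+Ter/SvJcl strain, with 1 mouse per library: a wild-type mouse at 3 weeks (WT, n = 1), Th-MYCN+/- mice at 3 weeks (n = 10) and a Th-MYCN+/- mouse at 6 weeks (n = 1). Th-MYCN+/- mice carry human MYCN under the rat Th promoter on 1 allele, so the transgene is driven from the promoter of a gene of the same pathway. The 6-week-old SMG was chosen because a tumor was visible in it, and with 1 mouse in each of the WT and 6-week groups their values have no test.

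Catecholamines are made from tyrosine in a short chain of enzymes: hydroxylation by Th gives L-DOPA, decarboxylation by Ddc gives dopamine, and Dbh inside the vesicle gives noradrenaline, the transmitter of most sympathetic neurons. Pnmt methylates noradrenaline to adrenaline and is best known from chromaffin cells of the adrenal medulla. Vesicular transporters load the amines, the noradrenaline transporter Slc6a2 takes them back up, and Maoa degrades them. Sympathoadrenal progenitors and the neuroblasts from which neuroblastoma is thought to arise carry this program to varying degrees.

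The classes were built without the 9 genes, 67 further genes of the pathway and the transgene, and were named from fixed marker lists that hold none of the 9. Of 12010 cells, 3061 were neuroblast-like (clusters 1, 4 and 10), 2728 ganglion-like (clusters 2, 6 and 9), 2888 Schwann-like, 527 endothelial-like and 243 macrophage-like. Another 2211 cells in clusters 3 and 5 had a median of 503 UMIs and stayed unnamed. Each library held 1147771 UMIs (WT), 1444552 to 6388765 (the 10 mice) or 4824039 (6 weeks). Levels are given as UMIs of a gene per 1000000 UMIs of the class in a mouse (CPM), and each gene is compared between classes, not with other genes. Mouse 2 of the 3-week-old Th-MYCN+/- mice stood apart, with 1498 ganglion-like but only 41 neuroblast-like and 6 Schwann-like cells, and with 38.7% of its UMIs in called cells. Of 11917 cell barcodes, 92 occurred in more than 1 library, at most 6 in any pair. Doublets were not removed. Among the neuroblast-like cells, 50 had at least 1% of their UMIs in the 8 ganglion markers, and results that rest on these mixed cells are given with and without them. As they were picked by ganglion markers, leaving them out is bound to lower genes that are high in ganglion-like cells. The markers include Prph, by which the paper marked its uncommitted cells. Whether mixed cells were doublets or neuroblast-like cells with ganglion genes was not tested.

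The members lie on 6 chromosomes of the GRCm38 mouse genome, all annotated as protein-coding. Th (ENSMUSG00000000214) spans chr7:142892752-142931128 on the minus strand, Dbh (ENSMUSG00000000889) chr2:27165233-27183200 on the plus strand and Slc6a2 (ENSMUSG00000055368) chr8:92960079-93001667 on the plus strand. Ddc (ENSMUSG00000020182, chr11:11814101-11898144, minus), Pnmt (ENSMUSG00000038216, chr11:98386450-98388181, plus) and Cyb561 (ENSMUSG00000019590, chr11:105933702-105953336, minus) share chromosome 11. Slc18a2 (ENSMUSG00000025094) lies at chr19:59260896-59296012 and Maoa (ENSMUSG00000025037) at chrX:16619698-16687818, both on the plus strand, and Slc18a1 (ENSMUSG00000036330) at chr8:69037711-69089235 on the minus strand. Ddc, Slc18a2, Slc18a1 and Cyb561 overlap a gene on the opposite strand.

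RefSeq promoter windows of 250 bases before to 50 after the start were available for Th, Ddc, Dbh, Slc18a2 and Maoa (GRCm38.p6). They are shown because a rat Th promoter drives the transgene, and because these mouse genes were lower in neuroblast-like than in ganglion-like cells, opposite to the transgene. Capitals mark matches, on either strand, to 3 motifs: the cyclic AMP response element (CRE) TGACGTCA, the AP-1 motif TGANTCA and the homeodomain core TAATTG. None of these motifs overlapped another in the windows printed.
Th (chr7:142899946-142900245, minus strand): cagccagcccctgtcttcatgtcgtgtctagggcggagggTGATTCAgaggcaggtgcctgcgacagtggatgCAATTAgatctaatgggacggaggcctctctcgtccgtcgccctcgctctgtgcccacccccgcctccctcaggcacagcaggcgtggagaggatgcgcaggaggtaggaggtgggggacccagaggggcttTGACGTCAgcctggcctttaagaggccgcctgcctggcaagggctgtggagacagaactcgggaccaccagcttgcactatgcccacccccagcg
Dbh (chr2:27165257-27165556, plus strand): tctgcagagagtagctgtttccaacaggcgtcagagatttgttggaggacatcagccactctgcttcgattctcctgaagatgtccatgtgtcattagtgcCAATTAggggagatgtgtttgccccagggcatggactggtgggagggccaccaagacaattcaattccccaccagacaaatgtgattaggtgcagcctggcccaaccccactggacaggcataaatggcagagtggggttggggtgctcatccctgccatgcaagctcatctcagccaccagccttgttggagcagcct
Slc18a2 (chr19:59260628-59260927, plus strand): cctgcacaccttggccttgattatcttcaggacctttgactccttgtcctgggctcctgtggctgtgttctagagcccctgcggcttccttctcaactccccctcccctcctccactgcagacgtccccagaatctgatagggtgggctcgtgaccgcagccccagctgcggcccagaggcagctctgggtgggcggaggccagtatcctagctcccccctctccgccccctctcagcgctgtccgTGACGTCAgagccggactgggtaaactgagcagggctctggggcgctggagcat
Ddc (chr11:11898095-11898394, minus strand): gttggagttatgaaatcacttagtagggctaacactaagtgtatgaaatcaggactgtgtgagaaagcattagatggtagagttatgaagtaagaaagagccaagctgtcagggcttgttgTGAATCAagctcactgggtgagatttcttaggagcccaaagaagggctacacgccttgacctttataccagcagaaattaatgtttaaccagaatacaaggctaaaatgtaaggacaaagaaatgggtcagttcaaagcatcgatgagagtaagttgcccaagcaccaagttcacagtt
The CRE of Th began at position -45 from the start and that of Slc18a2 at -4. A CRE was present in 588 of 32851 promoter windows (1.79%), the AP-1 motif in 7.81% and the homeodomain core in 8.00%. The Maoa window and the second Ddc window (chr11:11890359-11890658) held none of the 3. A match is a match of letters and says nothing of binding.

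Ganglion-like cells held most UMIs of the pathway. In the 10 Th-MYCN+/- mice at 3 weeks, they made up 30.4% of the UMIs in cells and held 71.2% of those of Th, 75.1% of Dbh, 86.8% of Slc6a2, 75.2% of Slc18a2, 72.7% of Cyb561 and 64.0% of Maoa. Neuroblast-like cells, with 48.6% of all UMIs, held 48.7% of the Ddc UMIs (ganglion-like cells 43.5%), 84.7% of the Pnmt UMIs (804 of 949) and 91.0% of the transgene UMIs. Most UMIs of the terminal enzyme of adrenaline synthesis and of the transgene thus lay in a different class from most of those of Th, Dbh and the transporters Slc6a2 and Slc18a2, while Ddc was divided between both.

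**Figure D1:**
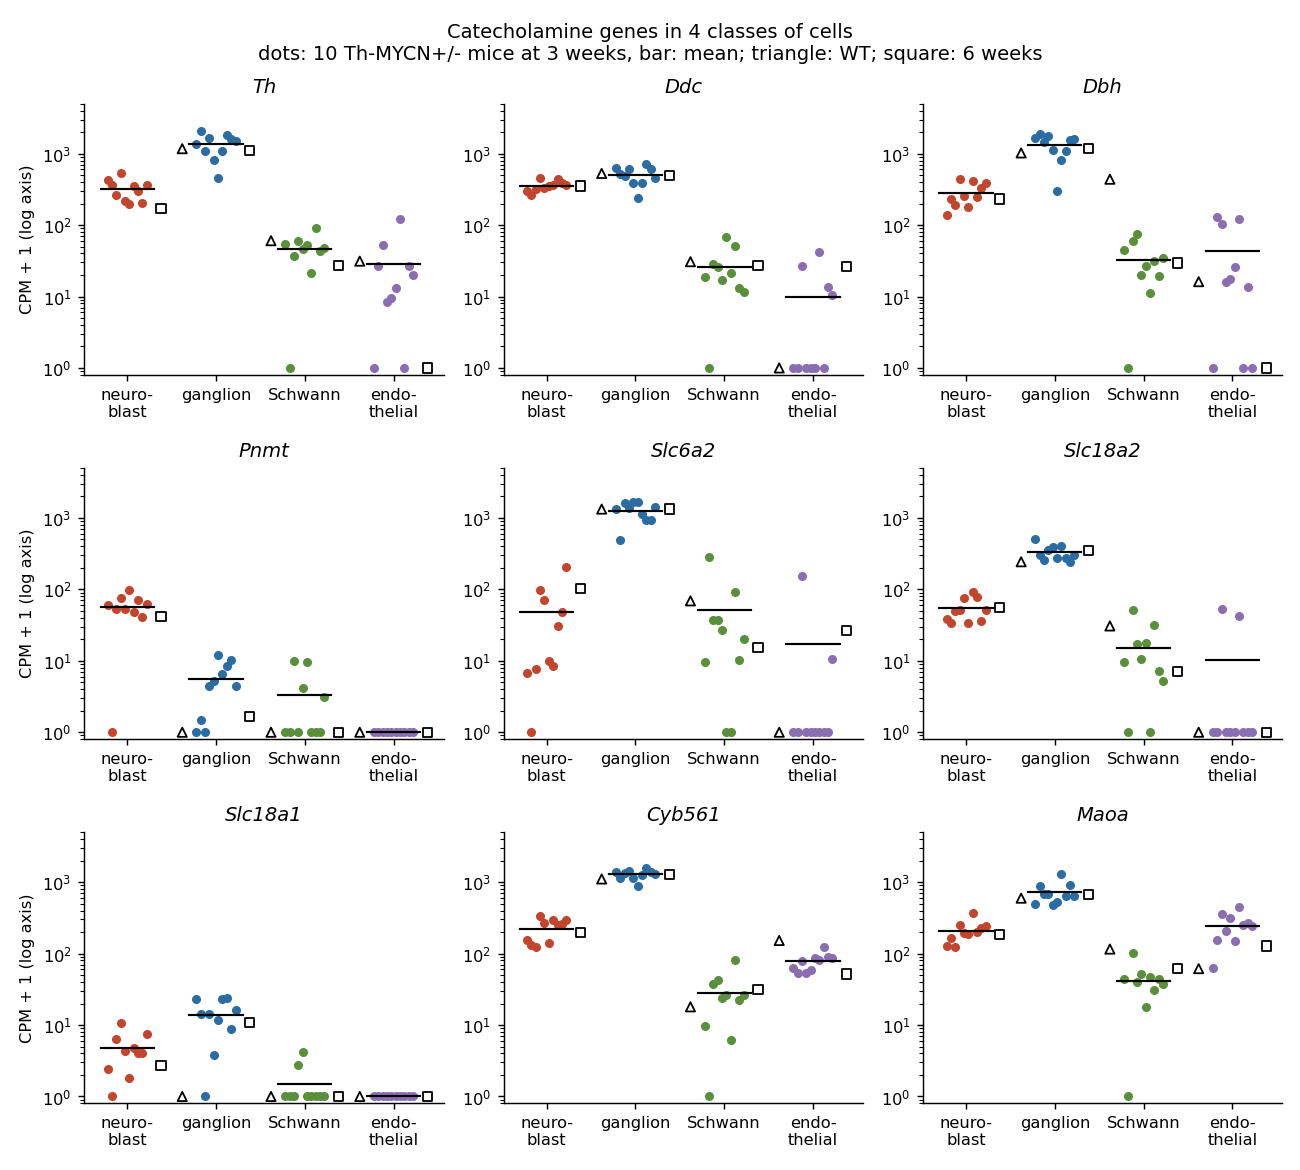
Level of each of the 9 genes (CPM + 1, log axis) in neuroblast-like, ganglion-like, Schwann-like and endothelial-like cells, with 1 dot per Th-MYCN+/- mouse at 3 weeks, a bar for the mean, a triangle for the WT mouse and a square for the 6-week-old mouse. WT neuroblast-like cells are not drawn because their 31 cells are too shallow; ganglion-like cells have the highest mean for every gene except Pnmt, which lies highest in neuroblast-like cells.

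To ask how far neuroblast-like cells carry the noradrenergic program, summed counts were compared with those of ganglion-like cells of the same 10 mice by edgeR's quasi-likelihood test with the mouse as block. All 7 members that could be tested were lower in neuroblast-like cells, where 33.3% of the 7098 genes tested were lower and 33.9% higher. Pnmt and Slc18a1 did not pass the filter on low counts. The sums of a class enter several comparisons, so those below are not independent of each other.

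Th, the rate-limiting enzyme, was at 193 CPM in the lowest, 324 in the median and 535 in the highest mouse in neuroblast-like cells (319 ± 108, SD, n = 10). In ganglion-like cells it was at 459, 1430 and 2041 CPM (1349 ± 488). The ranges met only through the ganglion-like cells of mouse 6, and Th was lower in neuroblast-like cells in 10 of 10 mice, by 2.07 on the log2 scale. Its change was −2.07 (SE 0.17, adjusted p = 7.8e-10), and −2.49 with mixed cells left out.

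Ddc, which makes dopamine, had the smallest change of the 7. Its level was 260, 356 and 448 CPM (356 ± 57.5) in neuroblast-like and 241, 497 and 709 CPM (503 ± 141) in ganglion-like cells. The ranges overlapped, and Ddc was lower in neuroblast-like cells in 9 of 10 mice, with a log2 change of −0.48 (SE 0.15, adjusted p = 0.0075). Per Dbh UMI there were 1.45 ± 0.504 Ddc UMIs in neuroblast-like cells (SD, n = 9 mice, from 0.863 to 2.24) and 0.431 ± 0.175 in ganglion-like cells (n = 10, from 0.274 to 0.815). The ranges of this ratio did not overlap. For Th per Dbh UMI, the values were 1.25 ± 0.734 (n = 9) and 1.09 ± 0.340 (n = 10), which overlapped widely.

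Dbh, which turns dopamine into noradrenaline, was at 135, 248 and 445 CPM (280 ± 107) in neuroblast-like and at 295, 1507 and 1880 CPM (1322 ± 492) in ganglion-like cells. Only mouse 6 had a ganglion-like level inside the neuroblast-like range, and Dbh was lower in 10 of 10 mice (log2 change −2.20, SE 0.21, adjusted p = 1.2e-08). Cyb561, which passes electrons into the vesicle for the Dbh reaction, was at 121, 253 and 331 CPM (223 ± 79.4) in neuroblast-like cells. Its ganglion-like levels of 875, 1323 and 1577 CPM (1280 ± 196) lay above all of these, with a log2 change of −2.56 (SE 0.16, adjusted p = 1.9e-11).

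Both transporters that could be tested separated the classes in full. Slc18a2, the vesicular monoamine transporter of neurons, was at 32.4, 49.7 and 90.7 CPM (53.0 ± 20.7) in neuroblast-like and 241, 306 and 502 CPM (331 ± 82.1) in ganglion-like cells. The groups did not overlap (log2 change −2.64, SE 0.17, adjusted p = 4.2e-11). Slc6a2 was at 0, 19.3 and 204 CPM (47.7 ± 63.7) in neuroblast-like and 493, 1356 and 1674 CPM (1255 ± 384) in ganglion-like cells. Again the groups did not overlap, and the log2 change of −5.22 (SE 0.43, adjusted p = 1.1e-09) was the largest of the 7. Of the 838 Slc6a2 UMIs in neuroblast-like cells, 550 (65.6%) lay in 10 of 2779 cells, against 24.9% for Th, 24.0% for Dbh and 7.04% for Ddc. Without the mixed cells, Slc6a2 stood at 12.2 ± 8.24 CPM in neuroblast-like cells and its log2 change at −6.61. Slc18a1, the vesicular transporter of endocrine cells, was scarce, with 3.72 ± 2.89 CPM (53 UMIs) in neuroblast-like and 13.0 ± 7.97 CPM (100 UMIs) in ganglion-like cells. The groups overlapped, and without the filter its log2 change was −1.29 (SE 0.38, adjusted p = 0.0023).

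Maoa, the mitochondrial oxidase, was at 122, 195 and 374 CPM (208 ± 72.8) in neuroblast-like and 475, 657 and 1284 CPM (720 ± 246) in ganglion-like cells, without overlap. Its log2 change was −1.77 (SE 0.14, adjusted p = 9.5e-10).

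Pnmt ran the other way. In neuroblast-like cells it was at 0, 56.2 and 97.3 CPM (55.5 ± 25.4, SD, n = 10), where the 0 belonged to mouse 2 with its 41 cells and the other 9 mice had at least 39.5. In ganglion-like cells it was at 0, 3.83 and 10.9 CPM (4.50 ± 3.85), from 27 UMIs in 8 of the 10 mice. Except for mouse 2, every neuroblast-like level lay above every ganglion-like level. Pnmt did not pass the filter on low counts, and without the filter its log2 change was 3.66 (SE 0.33, adjusted p = 4.2e-27). The fit without the filter drew its estimates of spread, and its adjustment, from 19116 genes instead of 7098. Its adjusted p values, for Pnmt and for Slc18a1, are therefore not comparable with those of the filtered fit. Per Dbh UMI there were 0.258 ± 0.150 Pnmt UMIs in neuroblast-like cells (n = 9) and 0.00649 ± 0.0111 in ganglion-like cells (n = 10). Without the mixed cells the neuroblast-like level of Pnmt was 57.5 ± 25.8 CPM, while that of Th was 247 ± 89.2 and that of Dbh 225 ± 71.0.

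Since Pnmt marks chromaffin cells, further chromaffin markers were checked. Penk had no UMI in the neuroblast-like or ganglion-like cells of the 10 mice, Npff had 4 UMIs and Dgkk 15 in neuroblast-like cells. Only C1ql1 exceeded a few CPM, at 9.20 ± 5.72 CPM in neuroblast-like and 44.4 ± 21.3 CPM in ganglion-like cells, so the 4 markers summed to 10.5 CPM (0 to 22.1) and 45.9 CPM (21.9 to 84.1). Markers of the adrenal cortex summed to 0.716 CPM in neuroblast-like and 0.147 CPM in ganglion-like cells. Over these classes the sum, nearly all of it C1ql1, was thus lower where Pnmt was higher, while Dgkk was at 0.912 ± 0.879 CPM in neuroblast-like and 0.467 ± 0.723 CPM in ganglion-like cells. Among the neuroblast-like clusters C1ql1 averaged 4.85 ± 5.46 CPM in cluster 1, 13.8 ± 9.22 in cluster 4 and 33.9 ± 49.4 in cluster 10 (35 UMIs). The mean Pnmt levels of these clusters had the same order (35.4, 91.5 and 99.3 CPM), but the ranges of C1ql1 overlapped. By median, C1ql1 was at 3.20, 14.1 and 8.94 CPM, so cluster 10 then lay below cluster 4.

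Human MYCN was at 97.7, 296 and 590 CPM (319 ± 159) in neuroblast-like cells and 2.39 ± 3.10 CPM in ganglion-like cells (18 UMIs), with a log2 change of 6.76 (SE 0.36, adjusted p = 6.1e-12). The transgene under the rat Th promoter and mouse Th therefore moved in opposite directions between these classes in all 10 mice.

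**Figure D2:**
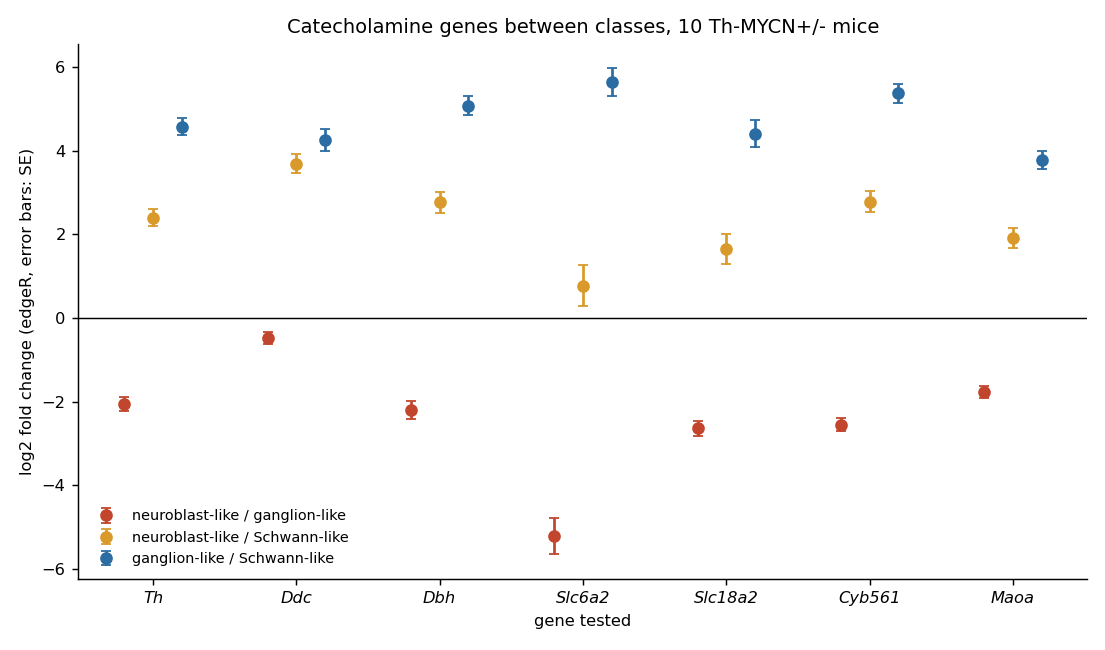
Log2 fold change of the 7 testable genes (edgeR, 10 Th-MYCN+/- mice at 3 weeks, error bars SE) for neuroblast-like over ganglion-like, neuroblast-like over Schwann-like and ganglion-like over Schwann-like cells. All 7 lie below 0 in the first and above 0 in the last, Ddc is nearest to 0 in the first at −0.48, and Slc6a2 is nearest to 0 in the second at 0.77.

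Schwann-like cells, the glia of the ganglion, gave the lower reference. Against them, 6 of the 7 testable members were higher in neuroblast-like cells, where 35.5% of the 5612 genes tested were higher and 32.2% lower. The log2 changes were 2.41 for Th (SE 0.21), 3.69 for Ddc (SE 0.23), 2.77 for Dbh (SE 0.25), 2.79 for Cyb561 (SE 0.26), 1.91 for Maoa (SE 0.24) and 1.66 for Slc18a2 (SE 0.36), the last with the highest adjusted p of the 6 at 3.6e-04. Slc6a2 missed the threshold at 0.77 (SE 0.49, adjusted p = 0.172), with a higher level in neuroblast-like cells in 6 of 10 mice. It passed at 1.08 without the filter on low counts and at 1.51 with the low-depth cells counted as neuroblast-like. With DESeq2's size factors the calls in this comparison split into 2508 higher and 1462 lower, against 1993 and 1809 with edgeR, as the median log2 change of all genes moved from 0.07 to 0.34, which does not turn any of the 6. In ganglion-like against Schwann-like cells, 7 of 7 were higher, where 37.7% of the 3099 genes tested were higher and 31.1% lower. These changes ran from 3.78 for Maoa (SE 0.22) through 4.58 for Th and 5.08 for Dbh to 5.65 for Slc6a2 (SE 0.33), with the median of all genes at 0.11 in edgeR and 0.25 in DESeq2. A member scarce in Schwann-like cells can pass the filter only through the other class. In both comparisons with Schwann-like cells, the counts of members therefore say nothing of the 2 not tested.

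In Schwann-like cells themselves the 9 genes averaged between 0.501 CPM (Slc18a1) and 50.8 CPM (Slc6a2), and in macrophage-like cells at most 44.0 CPM (Th, from 6 UMIs). Both upper values rested on mouse 2, which had 6 cells in either class: without it Schwann-like Slc6a2 averaged 25.1 ± 28.3 CPM and macrophage-like Th 20.3 ± 35.6 CPM (n = 9). Empty droplets carried free RNA of the pathway, with a median of 630 CPM for Th, 784 for Dbh, 243 for Slc6a2 and 40.7 for Pnmt, and free RNA was gauged at 1.10% to 7.40% of the UMIs in cells. Subtracting it changed no call on a member. Maoa departed from this background in endothelial-like cells, where it was at 61.0, 244 and 449 CPM (245 ± 112, SD, n = 10) while Th stood at 27.3 ± 36.8 and Pnmt had no UMI in any of the 10 mice. Cyb561 was at 76.8 ± 22.1 CPM in endothelial-like cells and above 50 CPM in every mouse. Endothelial Maoa was at 60.6 CPM in the WT mouse (exact Poisson 95% interval 16.5 to 155), from 4 UMIs.

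Cells called from the same depth were then asked which genes they carried together. At 5000 UMIs per cell, 943 neuroblast-like cells in 9 mice and 324 ganglion-like cells in 10 mice remained. The 324 were part of 2492 ganglion-like cells, and 253 of them were in cluster 9, so the ganglion-like shares describe mainly its deep cells. Likewise, the 943 were part of 2779 neuroblast-like cells, and 648 of them were in cluster 1. The neuroblast-like shares thus describe mainly deep cells of cluster 1. A Th UMI was found in 47.2% ± 10.5 of neuroblast-like and 95.6% ± 6.91 of ganglion-like cells, and a Dbh UMI in 56.4% ± 9.00 and 96.0% ± 7.76. For Ddc the shares were 79.7% ± 5.87 and 83.9% ± 14.2, which overlapped. Pnmt reversed the order with 20.6% ± 6.62 and 1.06% ± 2.00. All of Th, Ddc and Dbh were seen in 21.3% ± 5.52 of neuroblast-like and 77.3% ± 20.5 of ganglion-like cells. Adding Slc6a2 and Slc18a2 left 0.946% ± 1.36 and 53.6% ± 12.9, and the first of these shares fell to 0.210% ± 0.417 without mixed cells. Pnmt and the transgene were seen together in 13.6% ± 5.63 of neuroblast-like cells and in none of the 324 ganglion-like cells, a count that allows a share of up to 0.926%. Pnmt and Th were seen together in 12.1% ± 4.77 of neuroblast-like cells. Leaving out the mixed cells, 912 neuroblast-like cells gave 46.3% ± 10.9 for Th, 20.8% ± 6.58 for Pnmt and 20.1% ± 5.08 for Th, Ddc and Dbh together.

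At the lower depth of 500 UMIs per cell, where more cells enter, the shares kept this order. Th was detected in 9.05% ± 3.14 of neuroblast-like, 40.8% ± 14.0 of ganglion-like and 2.08% ± 3.36 of endothelial-like cells, the last serving as the background of free RNA. Pnmt was detected in 2.95% ± 1.79 of neuroblast-like, 0.820% ± 1.54 of ganglion-like and 0 of 371 endothelial-like cells, a count that allows a share of up to 0.809%. Without thinning, the median depths were 4424 UMIs in neuroblast-like, 1150 in ganglion-like and 1069 in endothelial-like cells.

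**Figure D3:**
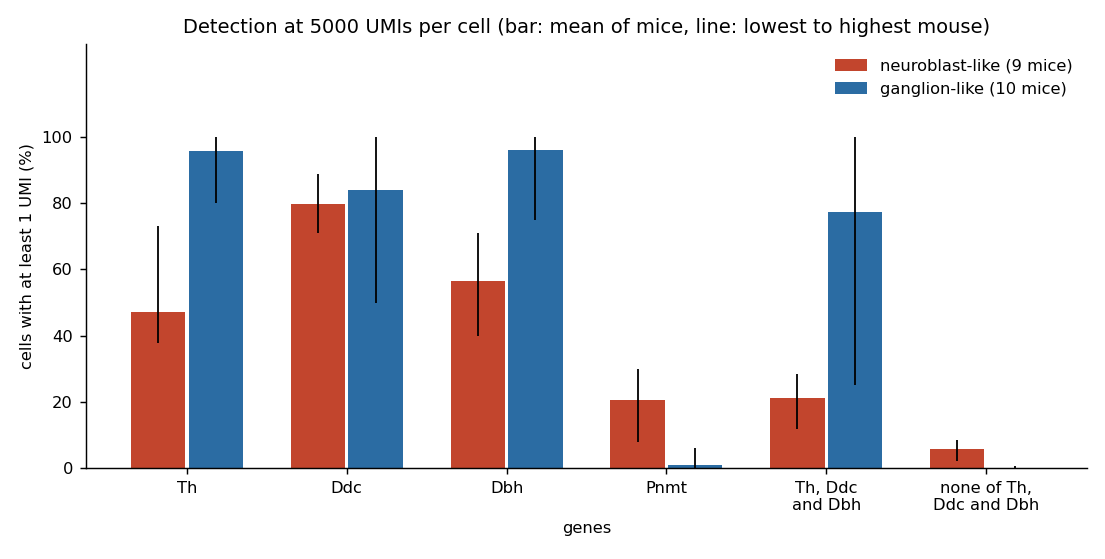
Share of cells (%) with at least 1 UMI of Th, Ddc, Dbh and Pnmt, of the first 3 together and of none of them, with every cell thinned to 5000 UMIs. Bars are means over 9 mice (neuroblast-like) or 10 mice (ganglion-like) and lines run from the lowest to the highest mouse: Ddc is close in both classes, Th and Dbh are near 100% only in ganglion-like cells, and Pnmt is near 20% only in neuroblast-like cells.

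Within the neuroblast-like class, the means of Pnmt and of the transgene differed in their order over the 3 clusters. Cluster 1, led by mitotic genes such as Ccnb1 and Cdk1, had 35.4 ± 26.7 CPM of Pnmt (10 mice), cluster 4, led by Agtr2 and Igfbpl1, had 91.5 ± 17.4 CPM (9 mice), and cluster 10, a group of 306 cells led by Cartpt, had 99.3 ± 74.6 CPM (10 mice, 78 UMIs). The lowest mouse in cluster 4 (61.8 CPM) lay above the cluster 1 median of 31.1 CPM, and cluster 10 ran from 0 to 248 CPM. The transgene was at 291 ± 114 CPM in cluster 1, 436 ± 226 CPM in cluster 4 and 182 ± 152 CPM in cluster 10, so cluster 10 had the highest mean of Pnmt and the lowest of the transgene. That Pnmt mean leaned on mouse 6 at 248 CPM. The Pnmt median of cluster 10 was 77.8 CPM, below the mean of cluster 4. Pnmt and the transgene were themselves among the 10 genes of largest fold in cluster 4, although neither was used in clustering.

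Th was at 313 ± 168 CPM in cluster 1, 352 ± 140 in cluster 4 and 136 ± 104 in cluster 10. By contrast, cluster 10 had the highest mean of Dbh at 414 ± 358 CPM (median 329, with mouse 6 at 1363). It also had the highest Slc18a1 at 17.1 ± 18.0 CPM, from 18 UMIs. With cells thinned to 5000 UMIs, a Th UMI was found in 41.2% ± 11.1 of cells in cluster 1 and 67.0% ± 12.4 in cluster 4 (9 mice each). The shares were also higher in cluster 4 for Ddc (77.8% ± 6.74 and 87.2% ± 8.94), Dbh (53.3% ± 11.3 and 62.2% ± 13.4) and Pnmt (15.8% ± 8.82 and 32.2% ± 6.89), with ranges that overlapped for all 4 genes. Th and Dbh were seen together in 21.3% ± 3.78 and 41.9% ± 14.8 of these cells. In the 73 cells of cluster 10 deep enough, over 5 mice, the shares were 41.7% ± 12.4 for Th, 74.4% ± 27.5 for Dbh and 28.9% ± 20.1 for Pnmt. These are descriptions over clusters, with no test.

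Among the ganglion-like clusters, Th was at 1826 ± 445 CPM in cluster 2 (5 mice, 87% of its cells from mouse 2), 1477 ± 701 in cluster 6 and 1235 ± 442 in cluster 9, and the ranges overlapped. Slc6a2 differed more: it was at 636 ± 179 CPM in cluster 2, against 1440 ± 737 in cluster 6 and 1270 ± 391 in cluster 9. Mouse 2 accordingly had the highest ganglion-like Th of all mice (2041 CPM) and the lowest Slc6a2 (493 CPM). Dbh was highest in cluster 6 at 2111 ± 1112 CPM. Cluster 9 held the deepest cells, with a median of 14291 UMIs.

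**Figure D4:**
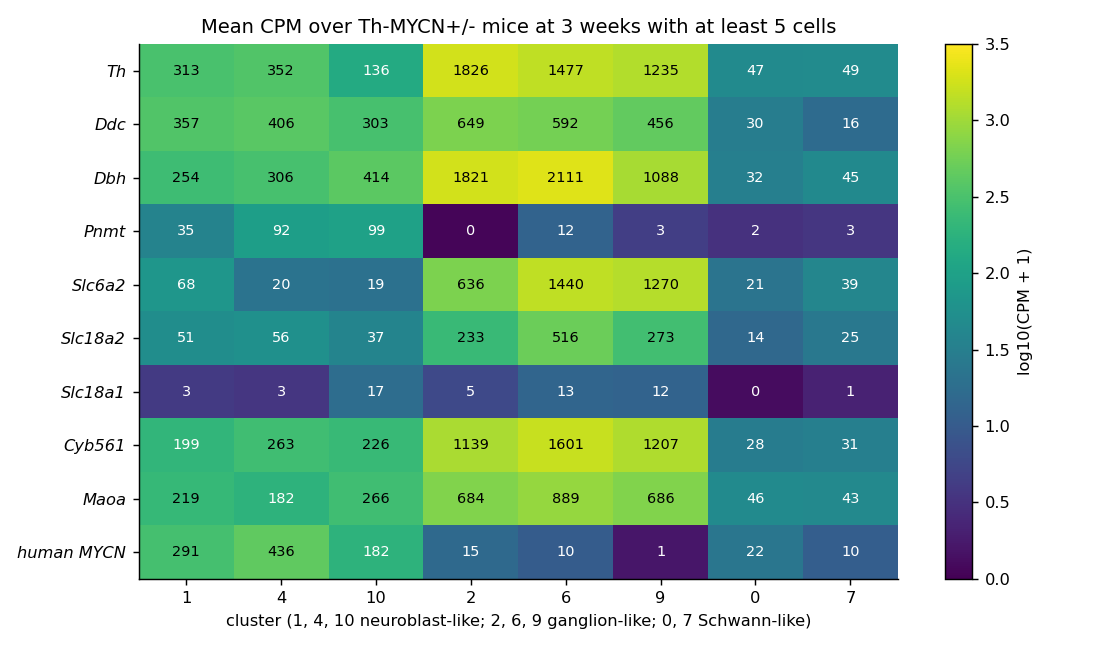
Mean level (CPM, printed in each cell; color on a log10(CPM + 1) scale) of the 9 genes and human MYCN in the neuroblast-like clusters 1, 4 and 10, the ganglion-like clusters 2, 6 and 9 and the Schwann-like clusters 0 and 7, over Th-MYCN+/- mice at 3 weeks with at least 5 cells. Pnmt and human MYCN are highest in the neuroblast-like clusters, and Slc6a2 is lower in cluster 2 (636) than in clusters 6 and 9.

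Neuroblast-like cells were next divided by called phase. Of these, 2282 were called S or G2M and 779 G1 from gene lists that hold no member, with 156 and 189 cells within 0.05 of the score at which the call changes. The phase groups drew on different clusters: cluster 1 held 64.5% of the cells called S or G2M and 12.3% of those called G1. Their median depths were 4586 and 3861 UMIs, and 45 of the 50 mixed cells were called G1. All 7 members tested were lower in cells called S or G2M, where 18% of the 5290 genes tested were lower and 16.3% higher.

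Th was at 239, 699 and 1370 CPM in cells called G1 (703 ± 293, lowest, median and highest mouse) and at 105, 168 and 294 CPM in those called S or G2M (181 ± 61.3). It was lower in 10 of 10 mice, with a log2 change of −2.00 (SE 0.20, adjusted p = 1.1e-07). Dbh was at 110, 488 and 1295 CPM and at 108, 176 and 215 CPM, lower in 9 of 10 mice (−1.57, SE 0.22, adjusted p = 1.3e-05). Only the upper part of the G1 range thus lay beyond the other phases for Dbh. Ddc again changed less, from 360, 485 and 997 CPM to 223, 305 and 400 CPM, lower in 10 of 10 mice (−0.67, SE 0.12, adjusted p = 2.5e-04). Pnmt was at 0, 113 and 178 CPM in cells called G1 and 0, 37.4 and 93.6 CPM in the others, lower in 8 mice, higher in 1 and without a UMI in mouse 2 (−1.24, SE 0.26, adjusted p = 7.8e-04). The remaining members tested had log2 changes of −1.54 for Slc18a2 (SE 0.20), −1.47 for Cyb561 (SE 0.15) and −0.75 for Maoa (SE 0.17, adjusted p = 0.0017). Human MYCN did not pass (0.08, SE 0.17, adjusted p = 0.748), at 299 ± 222 and 324 ± 148 CPM.

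Leaving out the mixed cells brought the changes to −1.33 for Th, −1.02 for Dbh, −0.78 for Slc18a2 and −0.91 for Cyb561, all still past the threshold, and to −1.45 for Pnmt. Maoa then missed it at −0.24 (adjusted p = 0.196). The G1 level of Th fell to 471 ± 215 CPM and that of Slc6a2 from 132 ± 180 to 14.9 ± 17.9 CPM, so the G1 level of Slc6a2 lay mostly in mixed cells. The part of free RNA in the phase calls was not tested.

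**Figure D5:**
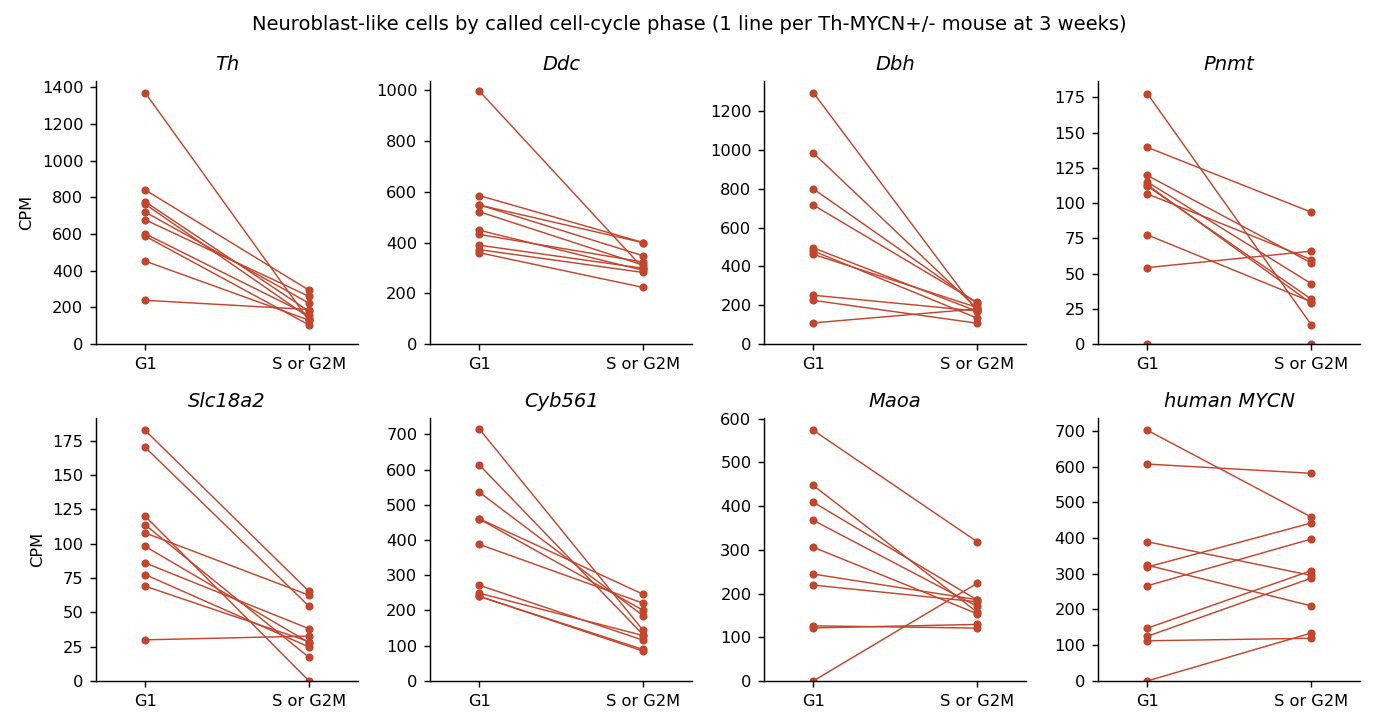
Level (CPM) of 7 genes of the pathway and human MYCN in neuroblast-like cells called G1 and in those called S or G2M, with 1 line per Th-MYCN+/- mouse at 3 weeks, mixed cells included. Lines fall from G1 in 10 of 10 mice for Th, Ddc and Cyb561, and run both ways for human MYCN.

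In the WT mouse, 89 ganglion-like cells carried, as a sum, the same noradrenergic set. The 10 cells richest in a gene held 65.6% of the UMIs of Th, 68.3% of Ddc, 72.1% of Dbh and 69.1% of Slc6a2. The levels therefore describe mainly a few cells. Th was at 1170 CPM (exact Poisson 95% interval 1052 to 1298, counting error only), Ddc at 526 (448 to 614), Dbh at 1020 (910 to 1140), Slc6a2 at 1324 (1198 to 1460) and Slc18a2 at 242 (190 to 304). All of these, as well as Cyb561 at 1105 and Maoa at 595 CPM, lay inside the range of the 10 Th-MYCN+/- mice. Pnmt had no UMI in the 89 cells, which allows up to 9.81 CPM, near the highest of the 10 mice. The WT sample had 31 neuroblast-like cells with a median of 331 UMIs and no UMI of Th, Ddc, Dbh or Pnmt, a count that allows up to 265 CPM, so Th at the level of the Th-MYCN+/- mice was close to the limit of detection there.

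In Schwann-like and endothelial-like cells, 2 of 9 WT levels each lay outside the range of the 10 mice. The farthest was Dbh in Schwann-like cells, at 437 CPM (357 to 530) against at most 75.1 CPM in the 10 mice. Of its 103 UMIs, 86 came from 1 cell with 3975 UMIs, which also held 23 UMIs of Npy and 57 of Fabp7. Without that cell the WT level was 73.4 CPM. The others were Maoa in Schwann-like cells, at 115 CPM (75.5 to 167) against at most 99.9, and, in endothelial-like cells, Cyb561 at 151 CPM (72.6 to 278, 10 UMIs) against at most 124 and Maoa at 60.6 CPM against at least 61.0. In the 6-week-old mouse 1 of these levels lay outside, endothelial Cyb561 at 50.6 CPM (2 UMIs) against at least 51.8.

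In the 6-week-old Th-MYCN+/- mouse, ganglion-like cells (147 cells) were within the range of the 10 younger mice for all 9 genes, with Th at 1108 CPM (1056 to 1163), Slc6a2 at 1328 (1271 to 1388) and Pnmt at 0.665 from 1 UMI. Neuroblast-like cells (251 cells) had Ddc at 351 CPM (324 to 380), Dbh at 231 (209 to 255), Pnmt at 40.2 (31.4 to 50.7) and Slc6a2 at 102 (87.6 to 118), all inside that range. Th was at 170 CPM (151 to 190), below the lowest of the 10 mice at 193. Of its 300 UMIs, 73.3% lay in 10 cells. Without mixed cells, Th stood at 77.1 CPM (64.2 to 91.8) against 121 to 418 CPM in the 10 mice, and Cyb561 at 108 CPM and Maoa at 118 CPM then also lay below their ranges of 121 to 258 and 122 to 313 CPM. The transgene was at 461 CPM (430 to 494), inside the range of 97.7 to 590. Age, the visible tumor and the single mouse cannot be told apart.

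The unnamed cells of low depth had Th at 439 ± 186 CPM, Dbh at 334 ± 95.6 and Slc6a2 at 248 ± 180 in the 10 mice, means between those of the neuroblast-like and ganglion-like classes, and Pnmt at 60.4 ± 23.9 CPM. Their Pnmt and transgene levels (198 ± 77.0 CPM) were of the order of those of neuroblast-like cells, while their Slc6a2 was higher. Counting them as neuroblast-like left all 7 members lower than in ganglion-like cells. The levels of this class are sums in which the deepest single cell held from 1.38% (mouse 3) to 20.3% (mouse 5) of the UMIs. Empty droplets had a median of 630 CPM for Th and 243 CPM for Slc6a2. The part of such deep cells and of free RNA in these levels was not tested.

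Genes that serve the same pathway were counted from fixed lists. Of the 7098 genes tested between neuroblast-like and ganglion-like cells, 33.3% were lower and 33.9% higher in the former. For the synthesis and recycling of tetrahydrobiopterin, the cofactor of Th, all 7 of 7 genes tested were lower in neuroblast-like than in ganglion-like cells, with a median log2 change of −1.80 against 0.03 over all 7098 genes. Among them were Gchfr, which regulates the first enzyme (−2.61, SE 0.39), Pcbd1, which recycles the cofactor (−2.41, SE 0.15), and Pts (−1.80, SE 0.18). Of 9 genes that provide copper, vitamin B6 or electrons to Dbh and Ddc, 4 did not pass the filter and all 5 tested were lower too. As a gene high in only 1 class can pass through that class, the 5 say nothing of the other 4. Among the 5 lower genes were the copper importer Slc31a1 at −2.55 (SE 0.20) and the copper chaperone Atox1 at −1.05 (SE 0.15).

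Of the breakdown enzymes 3 of 6 were lower, none higher and 3 did not pass, where 33.3% of all genes were lower. Maob, the other monoamine oxidase, changed by −1.80 (SE 0.24) and the aldehyde reductase Akr1a1 by −1.15 (SE 0.13). Of other monoamine transporters only Slc29a4 could be tested (−1.17, SE 0.19), and none of the 3 cholinergic genes passed the filter. Of 14 receptor genes, 12 did not pass the filter and the 2 tested were lower, with the dopamine receptor Drd2 at −4.36 (SE 0.39). A gene high in only 1 class can pass the filter through that class, so these 2 say nothing of the other 12.

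Granule proteins gave 5 of 8 lower and 1 higher, where 33.3% of all genes were lower and 33.9% higher. Among the lower were Scg2 at −3.19 (SE 0.37), the inhibitor of prohormone processing Pcsk1n at −2.06 (SE 0.12) and the convertase Pcsk2 at −1.65 (SE 0.25). The transcription factors of the noradrenergic lineage were split, with 4 of 8 higher and 4 lower and a median of 0.05. Tfap2b was higher at 1.68 (SE 0.14), whereas Hand1 at −1.80 (SE 0.13) and Hand2 at −1.73 (SE 0.15) were lower. Each gene named from the lists moved one way in 10 of 10 mice, which was a condition for naming it.

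The same lists were counted against Schwann-like cells. In neuroblast-like cells, where 35.5% of all genes tested were higher and 32.2% lower, 8 of 8 transcription factors tested were higher (median 3.90 against 0.07 over all genes), led by Insm1 at 5.21 (SE 0.46), Tfap2b at 4.70 and Gata2 at 4.11. The tetrahydrobiopterin list gave 3 of 6 higher and 2 lower, breakdown 3 of 5 higher and 2 lower with Akr1b3 at 1.89, cofactors 1 of 3 higher and 2 lower, and granule proteins 4 of 6 higher and 2 lower with Chgb at 3.41, Chga at 3.40 and Scg5 at 3.18. Apart from the transcription factors, each of these lists held genes of both directions, as all genes together did. In ganglion-like cells, where 37.7% of all genes tested were higher, 5 of 6 tetrahydrobiopterin genes were higher, led by Gch1, the first enzyme of that path, at 4.51 (SE 0.23) and Pcbd1 at 4.34 (SE 0.28). There, 7 of 7 transcription factors were higher, with Hand1 at 5.21 and Phox2a at 4.58, along with 4 of 6 granule genes, with Chgb at 4.87 and Pcsk1n at 4.84. Genes scarce in Schwann-like cells pass the filter through the other class, so they could hardly come out lower in it. The counts of factors thus say nothing of those not tested, 2 of 10 for neuroblast-like and 3 of 10 for ganglion-like cells.

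In cells called S or G2M, where 18% of all genes tested were lower, 5 of 6 tetrahydrobiopterin genes were lower than in those called G1, with Pcbd1 at −1.53 (SE 0.16) and Gch1 at −0.70 (SE 0.13). Granule proteins gave 5 of 6 lower, with Chga at −1.05 (SE 0.14), cofactors 3 of 3 lower and transcription factors 4 of 9 lower and 2 higher, with Gata2 at −0.82 (SE 0.13). Breakdown gave 3 of 5 lower and 1 higher. Its 2 named genes moved in opposite directions, Akr1b3 by 0.41 (SE 0.10) and Akr1a1 by −0.43 (SE 0.10), the latter missing the threshold without mixed cells at −0.25 (adjusted p = 0.0596).

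Levels across the 30 sums of neuroblast-like, ganglion-like and Schwann-like cells (10 mice, 3 classes that share a library within a mouse) were last used to find the genes most like a member, on log2(CPM + 10). As a description over these sums, Th was most like Rab3b (Pearson r = 0.974), Rab3a and Hand1, Dbh most like Hand1 (r = 0.966), Mapk10 and Rab3b, and Slc18a2 most like Nrsn1 (r = 0.963), Slc7a14 and Atp1b1. Ddc was most like Eef1a2 (r = 0.988), at 557 CPM in neuroblast-like and 689 CPM in ganglion-like cells, followed by Acot7 and Scg5. Slc6a2 was most like Gal (r = 0.941), and Gda was also among its nearest genes, with Gal at 42.4 CPM in neuroblast-like and 1012 CPM in ganglion-like cells. Th and Dbh had r = 0.970 over the 30 sums, but 0.292 over the 10 neuroblast-like and 0.844 over the 10 ganglion-like sums, so much of the first value came from the differences between classes.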

How the data were processed

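Superior mesenteric ganglia of 12 mice were profiled with Chromium 3' libraries. The deposited files hold raw UMI counts per gene and barcode, which the authors made with Cell Ranger 3.0.2 (file headers) on mm10 with human MYCN added. They list every barcode, so cells were called here from these counts against empty droplets (barcodes of at most 100 UMIs, 10000 simulations, false discovery rate 0.01) and kept with at least 200 genes, at most 10% mitochondrial and at most 60% ribosomal UMIs. Clustering used Seurat 5.3.0 and sctransform 0.4.2 (2000 variable genes, 30 components, resolution 0.5). Of the 9 members, 67 list genes and the transgene, the 71 measured in at least 3 cells were held out. No doublet caller was run. Clusters were named from at least 3 markers covering at least 50% of a list. Each such marker was in at least 10% of the cells and at least 1.5 times as high as in all other cells.

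Counts were summed per mouse and class (at least 5 cells) and tested with edgeR 4.0.16 (R 4.3.3; TMM, filterByExpr, quasi-likelihood test, mouse as block, Benjamini-Hochberg over all genes tested, threshold 0.05). The block stands for the animal, since the classes compared came from the same mouse and library. The tests were checked on simulated data. Alternatives were DESeq2 1.42.0, no filter, no block, at least 10 cells per sum, mouse 2 left out, stricter cell filters, free RNA subtracted and other clusterings, and, chosen after seeing the data, low-depth cells counted as neuroblast-like and mixed cells left out. The text names all 9 members, the transgene, the 3 genes per list with the largest change past the threshold and of 1 sign in every mouse, and the 5 genes most correlated with a member, of which up to 3 are given and 1 is not reported here. Gene places are from GENCODE M21. The members and lists were chosen with earlier results of these data known.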

Additional observations from a re-analysis of the deposited data

Results flagged for a closer look

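In 38 groups of 10 mice with a spread, the highest or lowest mouse was compared with its nearest neighbour by Dixon's criterion, and 10 groups had a mouse that stood apart. The rate of about 1 in 20 by chance holds only for normally distributed values. Many of these levels were sparse, such as endothelial-like Slc6a2 with 8 of 10 mice at 0. The 10 groups therefore cannot be read as more than chance gives. In neuroblast-like cells, Slc6a2 was at 204 CPM in mouse 10 (nearest other mouse 98.2), and Maoa at 374 CPM in mouse 7 (252). The first lay mostly in a few mixed cells, since no mouse exceeded 25.0 CPM without them. In Schwann-like cells, Slc6a2 was at 282 CPM in mouse 2, which had 6 such cells (nearest 90.9), Cyb561 at 80.8 in mouse 8 (41.1), Maoa at 99.9 in mouse 3 (51.5) and human MYCN at 144 in mouse 6 (19.3). In endothelial-like cells, Th was at 122 CPM in mouse 7 (51.6), Slc6a2 at 155 in mouse 3 (9.59), Cyb561 at 124 in mouse 8 (88.6) and human MYCN at 81.6 in mouse 7 (28.8). The endothelial-like sums were small, with 13 UMIs of Th, 7 of Slc6a2 and 6 of human MYCN over the 10 mice.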

How the results depend on the processing

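Among the alternative values for members in a test, 323 kept direction and side of the threshold and 3 did not. These were Slc6a2 against Schwann-like cells, which passed without the filter and with low-depth cells added, and Maoa between phases, which missed it without mixed cells. No value changed sign. Without the filter on low counts, 7741 genes instead of 4769 were called between neuroblast-like and ganglion-like cells, 7846 instead of 3802 between neuroblast-like and Schwann-like, 6917 instead of 2134 between ganglion-like and Schwann-like and 3132 instead of 1815 between phases, as more genes were tested. Without the replicate block the counts were 4839, 3791, 2042 and 1519, and no call on a member changed. Ganglion-like levels of the WT and 6-week-old mice and neuroblast-like levels of the latter outside the range of the 10 mice numbered 1 of 27 (Th), 2 with the stricter cell filter and 3 with log-normalized clustering. Shares of cells with a UMI rose with depth, with 31 moved by more than 1 SD and 7 not.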
